A study of Mus musculus with 2 samples.

Results

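The genes described here encode the enzymes and subunits that move nucleosomes, remove acetyl groups from histones, and add or remove histone methyl groups. They were chosen by symbol and not by any measured value: autosomal protein-coding genes of the GENCODE M21 annotation belonging to the Smarca to Smarce, Chd, Hdac, Sirt, Kmt2, Kmt5, Kdm, Ezh and Setd series. This gave 70 genes of the 69691 entries in each gene table, 20337 of which are autosomal and protein-coding. A further 6 genes with such symbols lie on the sex chromosomes and are not counted among the 70. The study sequenced stranded, polyadenylated RNA longer than 200 nt as paired reads, from frontal cortex of 8-week-old C57BL/6J mice, in 1 group of 2 libraries. The labels name no genotype or treatment, give the tissue as taken from littermates of mixed sex, and call the libraries biological replicates, although both carry the same donor identifier. How many animals stand behind a library is not given in the sources used here, so the spread between the libraries may be partly technical. No conditions are contrasted in a single group and no p-value is given, since the smallest two-sided exact p over 2 libraries is 0.5.

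DNA in the nucleus is wrapped around histones, and ATP-driven remodelers of the SWI/SNF (also called BAF), ISWI and CHD families slide, evict or space these nucleosomes. Histone deacetylases and sirtuins remove acetyl marks that go with active genes, methyltransferases write marks such as H3K4 methylation at promoters and enhancers or H3K27 methylation at silenced genes, and demethylases remove them. Many of these enzymes come as paralogs that replace one another in the same complex, and as neural progenitors become neurons some subunits of BAF and NuRD, a complex that joins a CHD remodeler with deacetylases, are known to be exchanged. The symbols also take in proteins whose main known substrate is not a histone. Setd3 methylates actin, Sirt3, Sirt4 and Sirt5 act in mitochondria, Hdac10 deacetylates polyamines, and Smarcal1 rewinds DNA at stalled replication forks.

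The libraries held 106084891 and 90476207 expected counts. The 70 genes took 0.611% and 0.581% of these counts, and 0.235% and 0.217% of all TPM (a share of transcripts adjusted for length). Cortical markers were present: the excitatory neuron gene Camk2a stood at 705 and 709 TPM, the GABAergic gene Gad1 at 468 and 631 TPM, and the astrocyte gene Aldoc at 674 and 703 TPM, in replicates 1 and 2. Markers of other cells were also found, led by Mbp for myelin (983 and 1275 TPM), Olig1 for oligodendrocyte precursors (84.3 and 94.0), C1qb for microglia (66.8 and 49.4), Ly6c1 for endothelium (90.5 and 124), Vtn for mural cells (103 and 89.0), Igf2 for meninges (42.1 and 30.0), Hba-a2 for blood (229 and 291) and Birc5 for dividing cells (1.45 and 1.67). The libraries stood apart in Y-linked genes: the demethylase gene Kdm5d was at 11.1 TPM in replicate 1 and at 0 in replicate 2, and Uty at 6.44 and 0.01 TPM, although the labels describe mixed sex for both. Sex and replicate therefore cannot be told apart here. In bulk tissue, fewer cells of a type and less RNA per cell cannot be told apart either.

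Some of these genes have short coding exons whose use sets which protein form is made, and their sequences are shown because the transcript values below turn on them. Kdm1a, also known as LSD1, removes methyl groups from H3K4 and has a 12-nt exon known for its inclusion in neurons. The sequences come from the GENCODE M21 transcripts (mm10), 5′ to 3′ on the transcript, with the alternative exon in capitals between 15 nt of each neighbouring exon.
Kdm1a, 12-nt exon, chr4:136563438-136563449, minus strand: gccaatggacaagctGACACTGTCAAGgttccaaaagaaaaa
Kdm1a, 60-nt exon, chr4:136582040-136582099, minus strand: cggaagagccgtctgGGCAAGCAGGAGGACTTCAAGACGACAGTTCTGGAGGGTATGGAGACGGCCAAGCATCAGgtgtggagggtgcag
Sirt2, 47-nt exon, chr7:28767632-28767678, plus strand: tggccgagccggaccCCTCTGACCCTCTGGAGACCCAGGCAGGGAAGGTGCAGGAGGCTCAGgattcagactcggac
Smarca4, 99-nt exon, chr9:21677953-21678051, plus strand: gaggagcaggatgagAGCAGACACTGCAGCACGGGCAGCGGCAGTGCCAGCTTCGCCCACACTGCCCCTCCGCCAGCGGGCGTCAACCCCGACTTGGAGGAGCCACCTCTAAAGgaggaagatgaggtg
The 12-nt exon of Kdm1a was carried by 1 annotated transcript, Kdm1a-208, whose model is incomplete. That transcript stood at 3.66 and 1.91 TPM in replicates 1 and 2, against 24.1 and 21.1 TPM for the transcripts that join the neighbouring exons directly. The 12-nt form was thus the minor one in both libraries, with the limit that a single partial model carries it. For the 60-nt exon, the including transcript was at 12.9 and 8.10 TPM and the skipping ones at 12.1 and 13.0 TPM, so the order of the forms differed between the libraries. In Sirt2, the deacetylase of tubulin and histone H4, the form with the 47-nt exon was at 12.4 and 11.6 TPM and the form without it at 78.1 and 85.1 TPM. The 99-nt exon of Smarca4 was carried by 1 transcript, Smarca4-203, whose model is also incomplete. That transcript was at 4.86 and 4.91 TPM, and those without the exon were at 38.5 and 33.4 TPM. For Sirt2 and Smarca4 the skipping form was several times higher in each library. For Smarca4 the limit is the same as for the 12-nt exon of Kdm1a. These 4 exons were picked from all coding exons of at most 100 nt in the 70 genes after their values were seen.

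Almost the whole set was transcribed in frontal cortex. Of the 70 genes, 69 (98.6%) reached 1 TPM in both libraries, against 61.9% of autosomal protein-coding genes. At 10 TPM the count was 49 (70%) against 36.5%, and at 100 TPM it was 3 (4.29%) against 4.07%. These are therefore broadly present genes of middle level: their median was 21.4 TPM with quartiles of 10.1 and 40.6, and among genes that averaged at least 1 TPM the medians were 21.5 TPM for the set and 13.9 TPM for all. The sole gene under 1 TPM was Kdm4d, an H3K9 demethylase with high expression in testis, at 0.67 and 0.42 TPM. The 3 above 100 TPM in both libraries were Chd3, Hdac5 and Sirt2. Down the order of 70 levels, 10 of the 69 steps between neighbours were apart in the same direction in both libraries. This was judged by the deposited TPM bounds, whose level is not stated. The steps from Chd3 to Hdac5, from Hdac5 to Sirt2 and from Sirt2 to Smarcc2 were among them. Most steps further down did not pass, because bounds overlapped in a library or the order differed between the libraries, as for Smarcd1 and Hdac11.

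**Figure D1:**
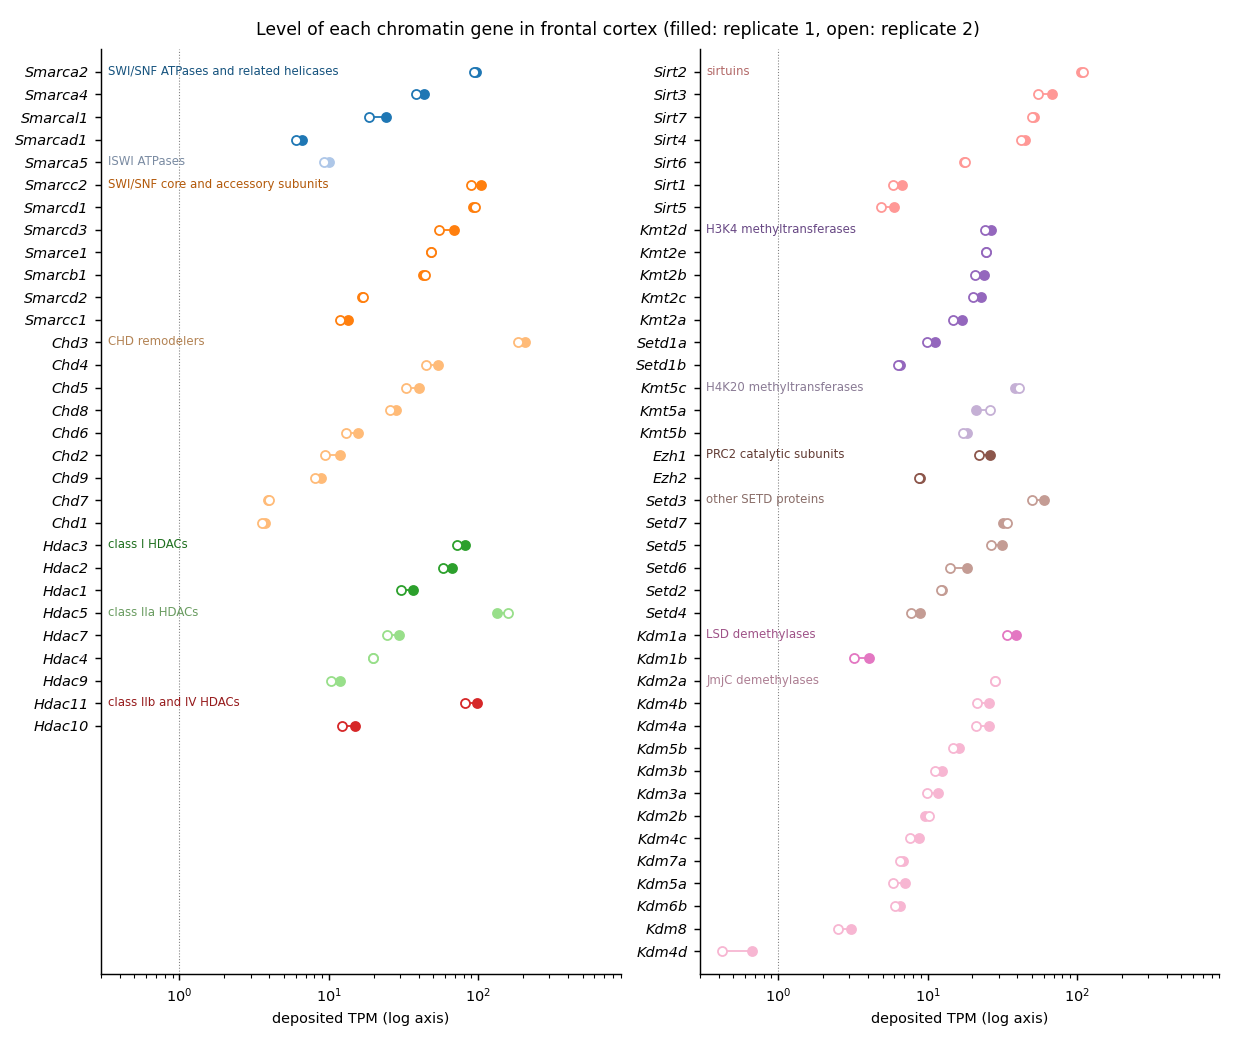
Deposited TPM (log axis) of the 70 genes, grouped by family, with replicate 1 as filled and replicate 2 as open circles. Chd3 lies highest at 207 and 184 TPM, and Kdm4d lies alone to the left of the dotted line at 1 TPM.

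Paralogs were compared within each library as the log2 ratio of TPM + 0.1. A ratio counts as beyond the spread when both libraries give the same sign, the mean exceeds the SD over the 2 libraries, and the deposited TPM bounds of the genes do not overlap in either library. Of 32 pairs, 31 were beyond the spread. At these counts the rule also passes small differences, such as Kdm3b over Kdm3a at 1.10-fold. No share over other gene pairs was taken, so the count shows nothing particular to paralogs. A gene's TPM sums all its transcripts, including short ones that keep an intron or encode no full protein. The ratios were therefore also taken over complete coding transcripts, those typed protein-coding with no missing end in GENCODE M21. The type was carried over by transcript identifier, without a check of length. Some deposited transcripts, among them ones of Smarca2, Smarcc2, Kmt2a and Kmt2d, differ in length from M21, which limits their coding ratios. This could be done for 29 pairs. Of these, 28 had a mean beyond their SD and 3 had the other sign, named below.

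Among the SWI/SNF subunits, which make up the BAF remodelers, Smarcc2 and Smarcd1 stood several times above their lower paralogs. Smarcc2, a scaffold subunit also called BAF170 (ENSMUSG00000025369.10, chr10:128459248-128490482, mm10), stood at 104 and 89.9 TPM and its paralog Smarcc1 (BAF155; chr9:110117708-110240178) at 13.5 and 11.8 TPM. The 2 genes did not overlap, and the log2 ratio was 2.93 ± 0.02 (SD, n = 2), or 7.62-fold. All TPM of both lay in complete coding transcripts, with 1 annotated transcript for Smarcc1 and 3 for Smarcc2. The coding ratio of 2.93 follows from this and is no separate check. Of the BAF60 subunits, Smarcd1 was at 92.3 and 95.6 TPM, Smarcd3 at 68.7 and 54.7 TPM, and Smarcd2 at 16.6 and 17.0 TPM. Smarcd1 exceeded Smarcd2 by 2.47 ± 0.01 on the log2 scale (3.61 on coding transcripts), Smarcd3 exceeded Smarcd2 by 1.86 ± 0.26, and Smarcd1 exceeded Smarcd3 by 0.61 ± 0.27. Smarcd3, the BAF60C form, thus lay between its paralogs, with 10.6% of its TPM in a transcript whose type could not be matched. The core subunit Smarcb1 stood at 42.5 and 44.1 TPM. Smarce1 (BAF57) stood at 48.4 and 48.1 TPM, but 65.7% of that was in other noncoding transcripts, led by the 610-nt Smarce1-206, which left 16.4 and 16.7 TPM of complete coding RNA.

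The ATPases of the complex were closer together on complete coding transcripts than by gene totals. Smarca2 (BRM; ENSMUSG00000024921.12, chr19:26605050-26778322) was at 96.2 and 93.1 TPM and Smarca4 (BRG1) at 43.3 and 38.3 TPM, a log2 ratio of 1.21 ± 0.09. The largest part of Smarca2, 39.4% and 45.6% of its TPM, was Smarca2-215, a 1460-nt transcript annotated as a target of nonsense-mediated decay, the surveillance that degrades transcripts with early stop codons. On complete coding transcripts Smarca2 stood at 47.9 and 38.6 TPM and Smarca4 at 38.5 and 33.4 TPM, which brought the ratio to 0.26 ± 0.08. Smarca2 remained higher in both libraries, by 1.20-fold in place of 2.32-fold. The annealing helicase Smarcal1 stood at 24.3 and 18.5 TPM, the remodeler Smarcad1 at 6.66 and 6.03 TPM, and the ISWI ATPase Smarca5 (SNF2H) at 9.96 and 9.35 TPM, the lowest 2 of these remodeling ATPases. Outside the 70 genes, the neuronal BAF actin-like subunit Actl6b was at 98.0 and 86.8 TPM and its progenitor counterpart Actl6a at 11.4 and 10.2 TPM, a log2 ratio of 3.09 ± 0.01. The other exchanged subunits did not show the neuronal form so far above. Dpf1, at 45.9 and 42.7 TPM, stood above Phf10 at 28.8 and 25.6 TPM, a pair for which no ratio was taken. Dpf1 was below Dpf2 by a log2 ratio of -0.35 ± 0.13, Dpf3 was below Phf10 at -2.99 ± 0.14 (-2.14 on coding transcripts), and Ss18l1 and Ss18 lay at 0.03 ± 0.04, the only one of these 4 ratios within the spread.

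The CHD family was headed by the NuRD remodelers. Chd3 (ENSMUSG00000018474.13, chr11:69343273-69369406), the most abundant of the 70 genes, stood at 207 and 184 TPM, Chd4 at 53.5 and 45.0 TPM, and Chd5, the neuron-enriched form, at 40.3 and 32.9 TPM. The 3 did not overlap in either library, with Chd3 over Chd4 at 1.99 ± 0.06, Chd3 over Chd5 at 2.42 ± 0.09 and Chd5 over Chd4 at -0.43 ± 0.03 on the log2 scale. Of the TPM of Chd3, 40.6% was in complete coding transcripts and 43.5% in transcripts that retain an intron. On coding transcripts Chd3 was at 89.0 and 70.5 TPM, and its excess over Chd4 was 1.32 ± 0.18 (2.49-fold in place of 3.97-fold) and over Chd5 1.73 ± 0.01 (3.32-fold in place of 5.35-fold). The order of Chd5 and Chd4 depended on length: by expected counts, which are not divided by length, Chd5 came out 0.44 above Chd4.

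Of the other CHD genes, Chd8, a remodeler tied to autism, was at 28.1 and 25.8 TPM and its relative Chd7, mutated in CHARGE syndrome, at 3.90 and 3.96 TPM. The log2 ratio was 2.74 ± 0.10 over all transcripts and 1.495 ± 0.14 over complete coding ones, with 53.6% of the TPM of Chd8 in transcripts that retain an intron. Chd6 was at 15.8 and 13.1 TPM and Chd9 at 8.82 and 8.13 TPM (log2 ratio 0.76 ± 0.10). Chd2, another epilepsy and neurodevelopment gene, was at 11.9 and 9.45 TPM and Chd1, its H3K4me3-reading paralog and the lowest of the family, at 3.75 and 3.56 TPM (1.51 ± 0.18). None of these pairs overlapped between its genes.

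Class I deacetylases are the catalytic subunits of the Sin3, NuRD, CoREST and NCoR corepressors. Hdac3, the NCoR enzyme, was highest at 81.6 and 72.2 TPM, followed by Hdac2 at 66.6 and 58.2 TPM and Hdac1 at 36.6 and 30.5 TPM. Hdac2 exceeded Hdac1 by 0.90 ± 0.05 and Hdac3 exceeded Hdac1 by 1.20 ± 0.06 on the log2 scale. All 3 had a sizeable retained-intron share, 31.7% for Hdac3, 43.3% for Hdac2 and 40.8% for Hdac1, and the order was the same on coding transcripts (0.82 ± 0.12 and 1.40 ± 0.04).

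Class IIa deacetylases shuttle between cytoplasm and nucleus with neuronal activity and restrain MEF2 factors. Hdac5 (ENSMUSG00000008855.13, chr11:102194432-102230166) was at 133 and 159 TPM, the second highest of the 70 genes, Hdac7 at 29.6 and 24.5 TPM, Hdac4 at 19.8 and 19.7 TPM and Hdac9 at 11.8 and 10.3 TPM. The excess of Hdac5 over Hdac4 was 2.87 ± 0.19 and over Hdac7 2.43 ± 0.38, while Hdac4 exceeded Hdac9 by 0.83 ± 0.13. Only 30.4% of the TPM of Hdac5 was in complete coding transcripts. Its 422-nt noncoding transcript Hdac5-208 was at 26.0 and 54.6 TPM, while the complete coding transcripts were at 46.3 and 41.5 TPM. On coding transcripts the excess over Hdac4 was 1.57 ± 0.18, or 2.97-fold in place of 7.33-fold. The deposited length of Hdac5, weighted by its transcripts, was 2129 and 1735 nt in the first and second library. The gene's TPM was higher in replicate 2 by 0.26 on the log2 scale and its scaled count by 0.06.

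Of the remaining zinc-dependent deacetylases, Hdac11, the class IV enzyme with defatty-acylase activity, stood at 98.3 and 82.1 TPM and Hdac10, of class IIb, at 14.97 and 12.3 TPM. The log2 ratio was 2.72 ± 0.02. Complete coding transcripts made up 86.1% of Hdac11 and 20.2% of Hdac10, which widened the ratio to 4.79 ± 0.37. The coding level of Hdac10 was 3.55 and 2.04 TPM.

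Sirtuins remove acyl groups with NAD+ as cofactor. Sirt2 (ENSMUSG00000015149.9, chr7:28766735-28788661), a mainly cytoplasmic enzyme abundant in myelin, was highest at 107 and 110 TPM, and on complete coding transcripts, at 100.8 and 104 TPM, it had the highest mean of the 67 genes that could be ranked that way, while in replicate 1 alone Smarcc2 was higher (104 TPM). The form without the 47-nt exon shown above took 73.0% and 77.5% of its TPM. Sirt1, the nuclear deacetylase, was at 6.70 and 5.83 TPM, so the log2 ratio of Sirt2 to Sirt1 was 4.09 ± 0.17 (17.1-fold), and 4.81 ± 0.21 (28.0-fold) on coding transcripts. Of the mitochondrial sirtuins, the deacetylase Sirt3 was at 67.8 and 54.7 TPM, Sirt4 at 44.6 and 42.6 TPM, and the desuccinylase Sirt5 at 5.97 and 4.89 TPM. Sirt3 exceeded Sirt4 by 0.48 ± 0.17 and Sirt5 by 3.47 ± 0.02 on the log2 scale. The closeness of Sirt4 to Sirt3 held for the gene totals alone: 80.4% of Sirt4 retained an intron, its complete coding transcripts stood at 4.02 and 3.84 TPM, and on those Sirt3 was 13.5-fold higher (3.75 ± 0.18).

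The chromatin-bound sirtuins were apart by gene totals and nearly level on complete coding transcripts, where no bounds were compared. Sirt7, a nucleolar H3K18 deacetylase (chr11:120618372-120625240), was at 51.5 and 49.7 TPM and Sirt6, an H3K9 and H3K56 deacetylase of DNA repair (chr10:81621785-81627797), at 17.6 and 17.8 TPM, a log2 ratio of 1.51 ± 0.05. In Sirt7, 65.3% of the TPM retained an intron, led by the 1925-nt Sirt7-205, and 28.0% was complete coding, against 83.0% in Sirt6. On coding transcripts Sirt7 was at 14.1 and 14.3 TPM and Sirt6 at 14.4 and 15.01 TPM, and the ratio was -0.05 ± 0.03.

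**Figure D2:**
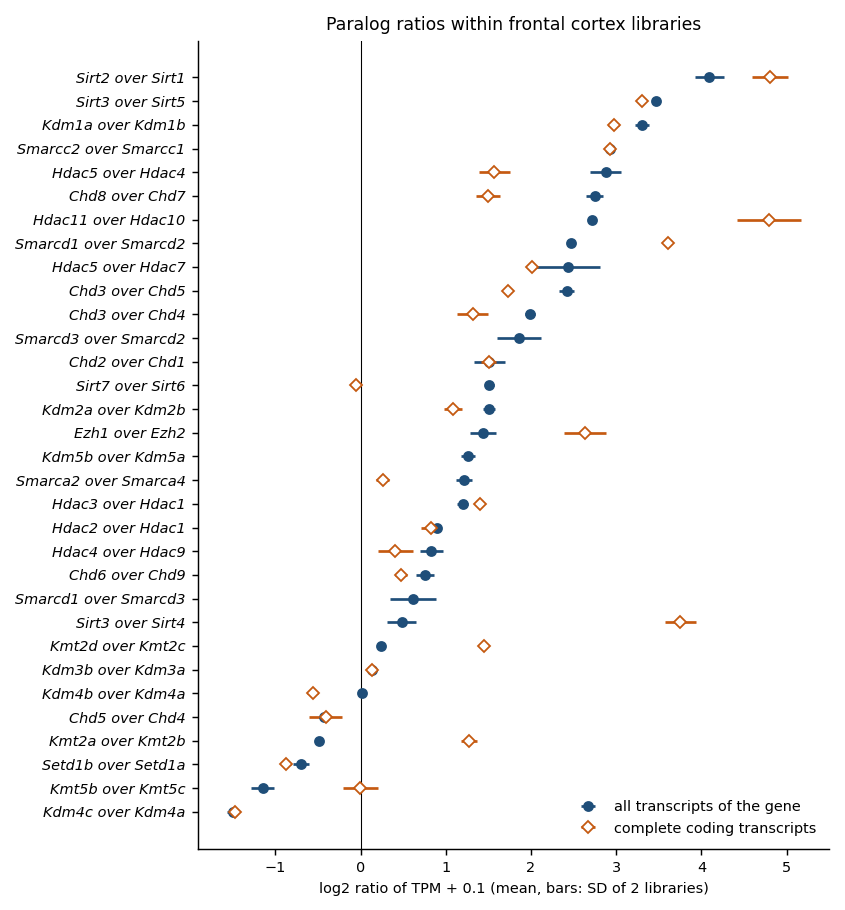
Log2 ratio of TPM + 0.1 for the 32 paralog pairs, as the mean with SD bars over 2 libraries, from all transcripts (filled) and from complete coding transcripts (open, 29 pairs). Sirt7 over Sirt6 moves from 1.51 to -0.05 and Kmt2a over Kmt2b from -0.49 to 1.27. Smarcc2 over Smarcc1, whose TPM is all complete coding, stays at 2.93.

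Methyltransferases of H3K4 work in COMPASS-type complexes. The gene totals of the MLL group lay close together, with Kmt2d (MLL4, of enhancers) at 26.5 and 24.4 TPM, Kmt2e, which has lost methyltransferase activity, at 24.6 and 24.5 TPM, Kmt2b at 23.8 and 20.8 TPM, Kmt2c at 22.9 and 20.2 TPM and Kmt2a (MLL1) at 16.9 and 14.8 TPM. Kmt2a lay below Kmt2b by a log2 ratio of -0.49, with the same value in both libraries, and Kmt2d above Kmt2c by 0.24 ± 0.04. Incomplete coding models took much of this: 63.0% of Kmt2d, chiefly the 856-nt Kmt2d-204, 76.8% of Kmt2c and 47.6% of Kmt2b, but none of Kmt2a. On complete coding transcripts Kmt2a stood at 15.2 and 13.7 TPM, Kmt2d at 10.2 and 8.70 TPM, Kmt2b at 6.56 and 5.35 TPM and Kmt2c at 3.66 and 3.13 TPM. Kmt2a was then above Kmt2b by 1.27 ± 0.10, and Kmt2d above Kmt2c by 1.45. By expected counts, which are not divided by length, Kmt2a was also above Kmt2b (1.02). The deposited lengths were 15005 and 15380 nt for Kmt2a and 5424 and 5518 nt for Kmt2b, so the counts cannot decide the order. Incomplete models lack an end in the annotation, and which order holds for full-length mRNA of these long genes was not tested. Of the SET1 enzymes, which deposit most promoter H3K4me3, Setd1a was at 11.3 and 9.96 TPM and Setd1b at 6.57 and 6.38 TPM (log2 ratio of Setd1b to Setd1a -0.70 ± 0.10).

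Among H4K20 methyltransferases, Kmt5a, the monomethylase of the cell cycle, was at 21.1 and 26.1 TPM, and the di- and trimethylases Kmt5b and Kmt5c were at 18.5 and 17.3 TPM and at 38.6 and 41.1 TPM. Kmt5b lay below Kmt5c at -1.15 ± 0.13. Of Kmt5c, 55.7% retained an intron. The coding levels were 15.1 and 14.0 TPM for Kmt5b and 13.7 and 15.6 TPM for Kmt5c, whose order differed between the libraries. By expected counts, not divided by length, Kmt5b was 0.86 above Kmt5c. For the catalytic subunits of PRC2, which methylates H3K27, Ezh1 (chr11:101191115-101226463) was at 26.0 and 22.1 TPM and Ezh2, the form of dividing cells, at 8.85 and 8.74 TPM. Ezh1 exceeded Ezh2 by 1.44 ± 0.16, and by 2.63 ± 0.25 on coding transcripts, where Ezh2 was at 2.81 and 3.25 TPM. The markers of dividing cells were low in these libraries, summing to 4.61 and 5.29 TPM over 5 genes; their part in the level of Ezh2 was not tested.

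The other SETD proteins ranged widely. The actin methyltransferase Setd3 had 60.4 and 49.8 TPM, but its deposited bounds, 58.9 to 83.3 and 48.4 to 79.7 TPM, are wide, so its level is uncertain. Setd7, which monomethylates H3K4 and other proteins, was at 32.2 and 34.3 TPM, Setd5, a neurodevelopmental disorder gene, at 31.7 and 26.6 TPM, Setd6, which acts on the NF-kappaB subunit RelA, at 18.3 and 14.2 TPM, and the H3K36 trimethylase Setd2 at 12.5 and 12.3 TPM. Setd4 was lowest at 8.85 and 7.77 TPM, with 23.9% of it in transcripts of unmatched type.

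The demethylases ran from Kdm1a at the top to Kdm4d at the bottom. Of the flavin-dependent ones, Kdm1a (ENSMUSG00000036940.11, chr4:136550540-136602723) was at 39.3 and 34.1 TPM and Kdm1b, its relative known from oocytes, at 4.06 and 3.23 TPM, a log2 ratio of 3.30 ± 0.08. The 13 Jumonji-domain genes had a median of 9.94 TPM and were led by the H3K36 demethylase Kdm2a at 28.4 TPM in both libraries. Kdm2b, which binds CpG islands with a variant PRC1 complex, was at 9.60 and 10.3 TPM (Kdm2a over Kdm2b 1.51 ± 0.07). The posterior mean TPM of Kdm2b was 1.12 and 1.11 times its TPM, so that level is less certain.

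Among H3K9 and H3K36 demethylases, Kdm4b at 25.8 and 21.6 TPM and Kdm4a at 25.9 and 20.95 TPM could not be separated (0.02 ± 0.03), the single pair of 32 within the spread. On coding transcripts Kdm4b lay below Kdm4a at -0.56 ± 0.07, with 37.6% of Kdm4b in incomplete models. Kdm4c was at 8.79 and 7.62 TPM, below Kdm4a at -1.50 ± 0.07. The H3K9 demethylases Kdm3b and Kdm3a were close, at 12.6 and 11.2 TPM and at 11.8 and 9.90 TPM (0.13 ± 0.06). Of the H3K4 demethylases, Kdm5b was at 16.3 and 14.7 TPM and Kdm5a at 7.03 and 5.83 TPM (1.26 ± 0.09), with 62.8% of Kdm5a in a transcript of unmatched type. The H3K27 demethylase Kdm6b, an inducible gene, stood at 6.57 and 6.05 TPM, Kdm7a, which acts on H3K9 and H3K27, at 6.81 and 6.54 TPM, and Kdm8 at 3.09 and 2.53 TPM.

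Transcripts that retain an intron took a sizeable share of many of these genes. The deposited tables hold 489 transcripts of the 70 genes, of which 157 are complete coding, 74 incomplete coding, 148 retained-intron, 25 nonsense-mediated decay, 80 other noncoding and 5 unmatched. In the 55 members that averaged at least 5 TPM and had more than 1 transcript, complete coding transcripts took a median of 69.8% of a gene's TPM, against 86.1% over 7252 autosomal protein-coding genes. Any coding transcript, complete or not, took 84.5% against 91.0%, and retained introns 9.06% against 1.72%. Complete coding transcripts made up under 50% of TPM in 16 of the 55 (29.1%) against 16.1% of all, and retained introns over 20% in 19 (34.5%) against 18.9%. The annotation holds more of these models for this set, as counted in a wider group, the genes that averaged at least 1 TPM. Medians there were 2 retained-intron transcripts a gene against 0, and 6 transcripts of any kind against 4. Among those of the 55 and of the 7252 genes with at least 1 annotated retained-intron transcript, the shares were 19 of 37 (51.4%) and 32.5%. Whether the annotation's density or the RNA sets the difference was not tested.

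Sirt4, Sirt7, Kmt5c, Chd8 and Smarcd2 were the members with a known type for nearly all TPM in which retained introns exceeded 50%, Smarcd2 at 51.2%. At the other end, Smarcc2, Kdm3a, Chd9, Kdm8 and Kdm4d had all their TPM in complete coding transcripts, with at least 2 annotated, and the 7 genes with a single transcript could show nothing else. The leading transcript was the same in both libraries for 65 of 70 genes and was complete coding in both for 54. It differed in Hdac5, Kdm1a, Setd6, Ezh2 and Sirt1. The 7 single-transcript genes fall in both counts by necessity, and neither count was taken over all genes, so they show nothing particular to this set. In Sirt1 the leader was Sirt1-205, a decay target, at 42.7% in replicate 1 and the coding Sirt1-201 at 51.6% in replicate 2.

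**Figure D3:**
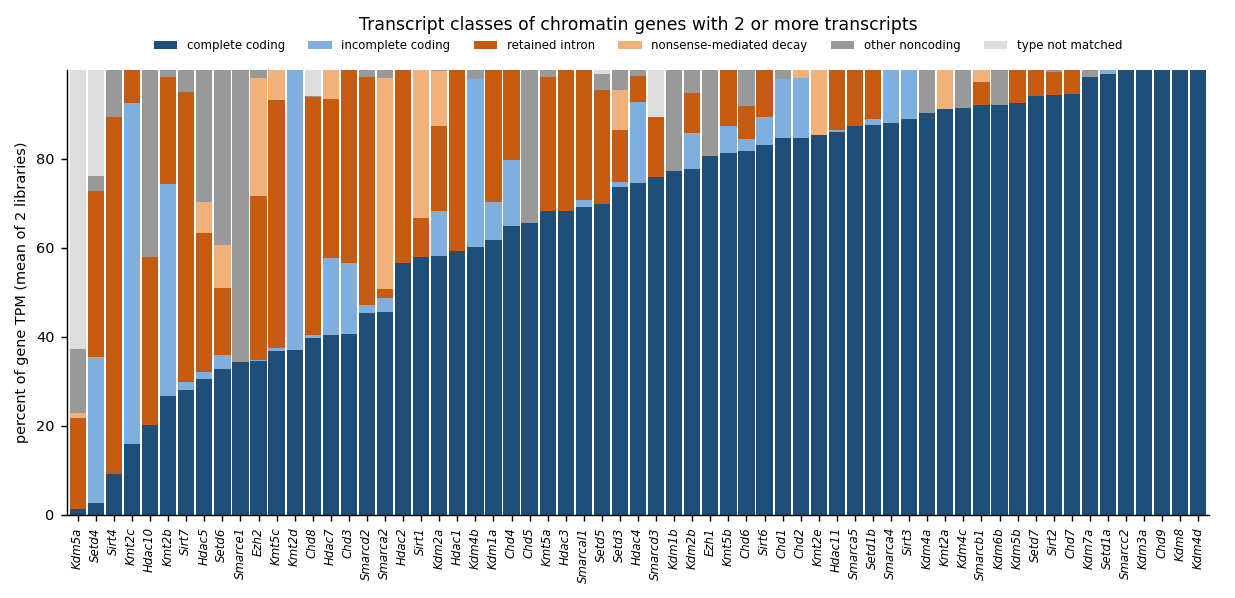
Percent of each gene's TPM by transcript class, as the mean of 2 libraries, for the members with at least 2 annotated transcripts, ordered by the complete coding share. Sirt4 holds 9.01% complete coding and 80.4% retained-intron TPM, and the bars at the right edge are wholly complete coding.

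Between the libraries these genes differed about as much as autosomal protein-coding genes at large. Ratios are log2 of replicate 2 over replicate 1, from rounded expected counts scaled by TMM, which sets library sizes from the bulk of genes. None of the 69 genes that averaged at least 1 TPM passed 1.5-fold. Of the 12792 autosomal protein-coding genes at that level 2.1% did (1.23% higher and 0.876% lower in replicate 2). For 69 genes a count of 0 is near that share. The median was -0.03 against 0.00, and the middle 50% ran from -0.09 to 0.06 against -0.09 to 0.10. Of the 69, 40 (58%) were lower in replicate 2, against 49.4% of all. This split moves with the scaling: by library size alone 50 (72.5%) were lower against 63.6%, by the spike-in total 46 (66.7%) against 59.9%, and by deposited TPM, where the median of all genes shifts to -0.13, 58 (84.1%) against 77.2%. For 18 of the 70 genes the direction differed between scaled counts and deposited TPM. Counting intervals at 95% cover counting error only, since each side is a single library. As PCR copies cannot be told from separate molecules, the intervals may be too narrow even for that. They lay above 0 for 18 of the 70 genes, below 0 for 26 and included 0 for 26. Neither these counts nor that of differing directions was taken over all genes, so they show nothing particular to this set. The interval is narrow at this depth and leaves out the variation between samples.

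The lowest ratio at 1 TPM or more was that of Smarcal1 (chr1:72583251-72633134), whose scaled count was lower in replicate 2 by a log2 ratio of -0.31 (-0.37 to -0.24). Sirt3 followed at -0.19 (-0.24 to -0.13), Chd5 at -0.17, Sirt5 at -0.16 (-0.35 to 0.02) and Kdm8 at -0.15 (-0.34 to 0.03), the last 2 with intervals that include 0. At the other end were Kmt5a (chr5:124439930-124462308) at 0.38 (0.31 to 0.45), Kmt5c (chr7:4740115-4747514) at 0.30 (0.23 to 0.37), Hdac4 at 0.23 (0.19 to 0.27), Smarcd1 at 0.19 and Setd7 at 0.18. Of these, Hdac4 had nearly equal TPM in the libraries (19.8 and 19.7). Kdm4d, below 1 TPM, stood at -0.52 (-0.95 to -0.12) from 137 and 78 counts. The H4K20 methyltransferases were the only family of 2 or more genes with all members higher in replicate 2 (3 of 3, median 0.30). Kmt5b, at 0.03, was lower by deposited TPM (-0.09) and by the spike-in total (-0.01), beside medians of -0.13 and -0.04 over all genes. The deacetylases Hdac10 and Hdac11 and the LSD demethylases Kdm1a and Kdm1b were all lower. They were lower by deposited TPM as well, as were 77.2% of all genes at 1 TPM or more.

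**Figure D4:**
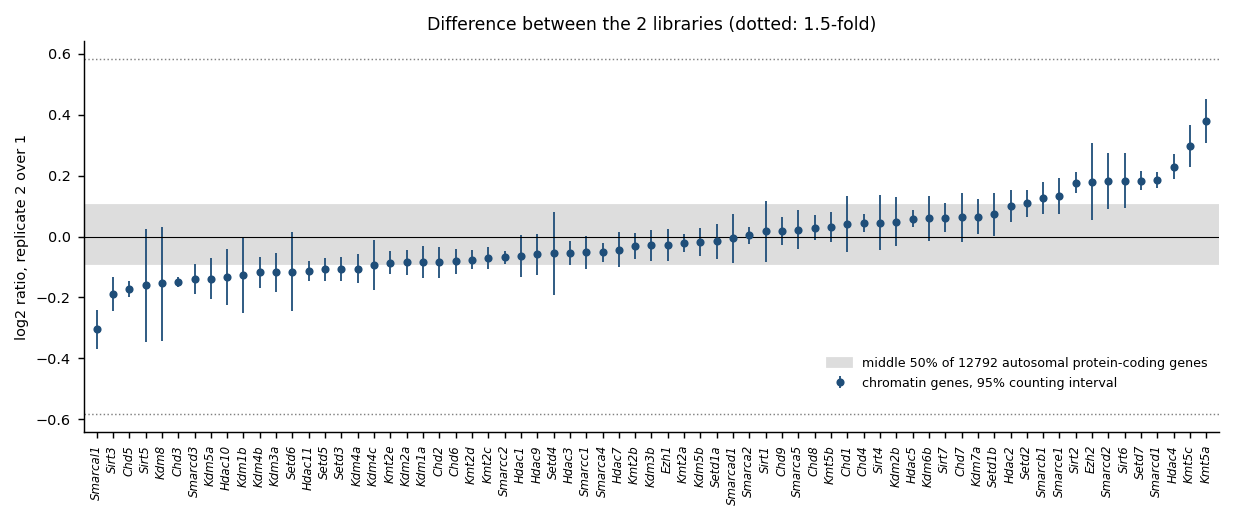
Log2 ratio of replicate 2 over replicate 1 (TMM-scaled counts) for the 69 genes that averaged at least 1 TPM, with 95% counting intervals; the grey band is the middle 50% of 12792 autosomal protein-coding genes and the dotted lines mark 1.5-fold. The points run from -0.31 for Smarcal1 to 0.38 for Kmt5a, all inside the dotted lines.

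Several of the chosen marker lists had larger median ratios than these genes. Of the immediate early genes, which mark recent neuronal activity, 8 of 8 were higher in replicate 2 (median log2 ratio 1.23), their summed TPM being 199 and 404, and Egr1 stood at 58.2 and 95.5 TPM. Blood markers were higher in 5 of 5 (median 0.55) and myelin markers in 8 of 9 (0.41), with summed TPM of 2040 and 2474 for myelin. Microglial markers were higher in 0 of 7 (-0.35), mural in 0 of 6 (-0.34), meningeal in 1 of 6 (-0.36) and endothelial in 2 of 6 (-0.14). Among neuronal lists 6 of 8 excitatory genes (0.23) and 6 of 7 GABAergic genes (0.21) were higher, and the other lists were astrocytes (6 of 8, 0.08; 3 of 8 by deposited TPM, -0.05), oligodendrocyte precursors (3 of 6, -0.05) and dividing cells (3 of 3 at 1 TPM or more, 0.13). The ratio of Sirt2, the gene known from myelin, was 0.18 (0.14 to 0.21) from scaled counts and 0.04 from deposited TPM. The part of cell makeup, activity or sex in the differences between members was not tested.

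The partners of these enzymes, listed from known complexes, had median ratios between libraries from -0.04 to 0.07. Their levels differed by list, with a median of 165 TPM for the class IIa deacetylase partners and 7.35 TPM for the sex-linked relatives. The 20 BAF partners ranged from the actin gene Actb, at 1304 and 1250 TPM, and Actl6b down to Dpf3 at 3.78 and 2.93 TPM, with 9 higher in replicate 2 and a median log2 ratio of -0.01. Of the 10 NuRD and CHD partners, the NuRD subunit gene Mbd3 (111 and 98.4 TPM) and Cdk2ap1 (94.3 and 118) led. Gatad2a (9.15 and 8.60) was last, and 7 of the 10 were higher (0.02). Of the 7 ISWI partners, Baz1b (32.5 and 29.8) and Bptf (20.96 and 18.2) led and Baz1a (1.11 and 1.06) was last, with 3 higher (-0.01). Most of these are accessory subunits that target the remodelers. The 15 HDAC corepressor genes were led by Ncor1 (76.9 and 63.3), with Sap30 last (5.48 and 5.66), 7 higher and a median of -0.03. The partners of class IIa deacetylases were led by the 14-3-3 genes Ywhah (664 and 686) and Ywhae (556 and 536), with the MEF2 gene Mef2b last (0.18 and 0.32), and 8 of the 9 at 1 TPM or more were higher (0.07).

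The 11 COMPASS partners were led by Psip1 (141 and 125 TPM) and the SET1 subunit gene Wdr82 (55.3 and 49.2), with Paxip1 last (15.2 and 13.1), and 5 were higher in replicate 2 (median log2 ratio -0.00). The PRC2 partners were led by the histone chaperone gene Rbbp4 (31.8 and 29.1) and by Epop (25.6 and 32.0), with Phf19 last (0.65 and 0.62), and 4 of 8 were higher (-0.00). Other lysine methyltransferases were led by the H3K9 enzyme gene Ehmt2 (149.8 and 132 TPM) and Smyd2 (67.8 and 76.1), with Suv39h2 last (1.33 and 1.32), and 7 of 17 were higher (-0.04). The acetyltransferases, which write what the deacetylases remove, were led by Kat5 (31.5 and 31.8) and Kat2a (31.4 and 30.4), with Kat2b last (7.84 and 7.57), and 5 of 9 were higher (0.07). Of the relatives on the sex chromosomes, the tubulin deacetylase Hdac6 led at 42.4 and 35.4 TPM, and Kdm5c, an X-linked gene that escapes inactivation, was at 13.3 and 18.1 TPM. Across these 8 sex-linked genes the median ratio was -0.02, with 2 higher in replicate 2, and Uty and Kdm5d stood at or near 0 in replicate 2 as given above. By deposited TPM the medians of all these partner lists were below 0, from -0.20 for the sex-linked genes and the HDAC corepressors to -0.05 for the COMPASS partners, beside the shift of -0.13 over all genes.

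The 70 genes also shared features that the choice by symbol did not use. Their transcripts were long: the median deposited length was 4072 nt against 2127 nt over all autosomal protein-coding genes, and 4163 against 2602 nt among those at 1 TPM or more. A RefSeq promoter (GRCm38.p6, 250 nt before to 50 nt after the start) was found for 54 of the 70. Their median ratio of observed to expected CpG was 0.87 against 0.62, and 48 of 54 (88.9%) had 0.6 or more against 51.7% of all promoters. Among genes at 1 TPM or more the shares were 88.7% and 73.1%, a smaller distance than over all genes. The letters TATAAA occurred on either strand in 2 of 54 (3.70%), Hdac9 and Smarcd2, against 12.7% of all promoters and, at 1 TPM or more, in 3.77% against 6.61%.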

How the data were processed

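Per the deposited text description, the authors aligned the reads to mm10 with GENCODE annotation M4; which aligner and quantifier they used is not given in the sources used here. For each library the authors deposited expected counts, TPM and posterior mean TPM, the percent of a gene's TPM in each transcript, TPM interval bounds and posterior SDs of counts (treated as signal values), and lengths weighted over transcripts, per the file headers. ERCC spike-ins took 3.50% and 3.47% of expected counts, and all deposited count and TPM columns were taken by sample.

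Symbols, types, exons and sequences came from GENCODE M21 by identifier without version; 484 of 489 member transcripts matched. Coding-only values were left out for Smarcd3, Setd4 and Kdm5a, where under 90% of TPM was in matched transcripts. Exon sequences were printed only where every transcript's length in M21 equalled the deposited length. The transcript classes had no such check. Replicate ratios used TMM (factors 1.02 and 0.982, edgeR 4.0.16, R 4.3.3) on expected counts rounded to whole numbers, spike-ins left out, with a prior count of 2 and exact conditional binomial intervals; the code was tested on simulated data. Python 3.11.15, pandas 2.3.3 and SciPy 1.17.1 did the rest. The pseudocount on TPM was 0.1.

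The members, pairs, partner lists and marker lists were chosen with earlier results of these data known. Both libraries are given for pair members, for the highest and lowest of each family and for the 5 highest and lowest replicate ratios; of each partner list the first 2 and the last are named, except 1 gene that is not reported here, and of each marker list the first. A table of protein sequences was not used here. Alternatives covered thresholds, posterior means, pseudocounts, counts without length, DESeq2 1.42.0 size factors, other scalings, filters and each library left out.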

Additional observations from a re-analysis of the deposited data

How the results depend on the processing

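With 2 libraries, an SD has 1 degree of freedom. No paired analysis was possible because there is 1 group, and leaving out a library leaves no replicate ratio. Of the pair ratios beyond the spread, 5 values changed sign: by expected counts not divided by length Chd5 over Chd4 was 0.44, Kmt2a over Kmt2b 1.02 and Kmt5b over Kmt5c 0.86, and on complete coding transcripts, an alternative chosen after seeing the data, the log2 ratio of Sirt7 over Sirt6 was -0.052 and Kmt2a over Kmt2b 1.27. Kdm4b over Kdm4a, within the spread at 0.02, was -0.24 by counts, -0.56 on complete coding transcripts and -0.003 in replicate 1 alone. These alternatives differ from the reported ratio by construction, in length adjustment or in the transcripts counted. Under posterior means and pseudocounts of 1 and 0.01, all 36 pair ratios kept their direction and side. The median replicate ratio of the 69 genes was -0.18 by deposited TPM, beside -0.13 for all genes. The median percent of TPM in coding transcripts was 79.6 from the deposited posterior mean percentages and 69.8 for complete coding transcripts alone, and 82.4 and 83.0 from single libraries, in place of 84.5. No scaling or filter brought any of the 69 genes past 1.5-fold.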
